A study of Mus musculus with 12 samples.

Results

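The genes described here encode the NF-kB transcription factor family and the proteins that hold it back or redirect it in the nucleus. The set comprised 10 genes chosen by name with earlier results of these data known, so counts of the set are descriptive. They were the subunit genes Nfkb1, Nfkb2, Rel, Rela and Relb, the atypical nuclear inhibitor genes Bcl3, Nfkbiz and Nfkbid, and the cytoplasmic inhibitor genes Nfkbia and Nfkbie. Of these, 9 had a probe set annotated to exactly 1 gene symbol, among 22180 genes with such a probe set, and each had 1 such probe set. Nfkb1 was not analysed here. All 9 had a mean above 5 on the log2 scale in every group, so all were among the 9862 genes tested, and none owed its place to a single group.

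The study profiled mouse splenic CD8+ T cells with Affymetrix arrays in 4 groups, each with 2 biological arrays and 1 technical array. Naive wild-type (WT) cells and cells from Cd4cre+ STAT3fl/fl mice (labelled STAT3-/-) were mixed in equal parts and activated together with anti-CD3 and anti-CD28. The cultures received IL-12 (called Tc1) or IL-6 with TGFb (called Tc17) and a final day of IL-2, and the genotypes were then separated by sorting on allelic markers. The 4 groups were therefore Tc1 WT, Tc1 STAT3-/-, Tc17 WT and Tc17 STAT3-/-, all activated CD8+ T cells from mixed cultures. Cre driven from Cd4 acts during thymic development, before the CD8+ lineage separates, so with this driver deletion precedes activation. The sources used here give neither the age of the mice nor how many animals stood behind a sample. The technical array of each group carried the number of biological sample 2. In every group it differed more from biological 2 than biological 1 did. The SDs of the difference over tested genes were 0.247 and 0.144 in Tc1 WT and 0.292 and 0.192 in Tc1 STAT3-/-. They were 0.352 and 0.191 in Tc17 WT and 0.209 and 0.148 in Tc17 STAT3-/-. On its number alone it was averaged with biological sample 2, which left 2 samples per group. Nothing in the labels says that the 2 came from separate animals or cultures, so a p-value here reflects only how far these samples spread, and that spread may be technical.

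NF-kB subunits pair through a shared Rel homology domain and bind kB sites in DNA. Rela, Rel and Relb carry activation domains, whereas Nfkb1 and Nfkb2 encode precursors that are processed to p50 and p52, which lack one. IkBa and IkBe, the products of Nfkbia and Nfkbie, keep dimers in the cytoplasm until they are degraded after T cell receptor or cytokine signalling, and both genes are themselves NF-kB targets. The atypical inhibitors Bcl3, IkBz (Nfkbiz) and IkBNS (Nfkbid) act in the nucleus on p50 or p52 dimers and can raise or lower transcription depending on the gene. In CD4+ T cells IkBz is known as a factor of the IL-17 programme, which IL-6 starts through STAT3.

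The labels could be checked on the arrays. Stat3 lay between 6.99 and 7.93 on the 6 STAT3-/- arrays and between 9.77 and 10.72 on the 6 WT arrays. Il17a reached 7.90, 8.07 and 9.44 on the Tc17 WT arrays and stayed between 4.11 and 4.63 on the other 9. Median values of all probe sets on an array ran from 3.95 to 4.10. The Tc17 WT technical array stood apart, with a median correlation to the other arrays of 0.933 against at least 0.961 for the rest, so where leaving it out changed a call of a gene named here, the value without it is given.

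The level of the nuclear inhibitor Bcl3 was highest in Tc17 WT cells and was 2.70-fold lower in their STAT3-/- neighbours. On the log2 scale Bcl3 read 9.25, 9.23 and 9.30 on the Tc17 WT arrays (biological 1, biological 2 and technical 2) and 7.82, 7.64 and 8.001 on the Tc17 STAT3-/- arrays. It read 8.53, 8.30 and 8.08 in Tc1 WT and 7.92, 7.80 and 7.77 in Tc1 STAT3-/- cells. Every WT array thus lay above every STAT3-/- array of the same culture, and the arrays of the STAT3-/- groups overlapped with each other. The change in Tc17 was -1.44 ± 0.12 (log2, SE, n = 2 samples per group, limma adjusted p = 8.1e-05), and it kept its call in all 22 alternative analyses, from -1.59 to -1.37 in the 14 that kept every sample. With the Tc17 WT technical array left out the arrays still did not overlap, since the other 2 arrays of that group read 9.25 and 9.23. In such bulk RNA, fewer cells expressing a gene and less RNA per cell cannot be told apart.

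In Tc1 cells the Bcl3 difference was -0.50 ± 0.12 with an unadjusted p of 0.0022 and a limma adjusted p of 0.571, so it was not called. The size of the Bcl3 change differed between the cultures by -0.93 ± 0.17 (limma interaction term, adjusted p = 0.014). That interaction call was lost without Tc1 STAT3-/- replicate 1 (adjusted p = 0.054), without Tc17 STAT3-/- replicate 1 (adjusted p = 0.0656) and without Tc17 STAT3-/- replicate 2 (adjusted p = 0.0609), with estimates of -0.86, -0.93 and -0.93. Among WT cells Bcl3 rose by 0.90 ± 0.12 from Tc1 to Tc17 (limma adjusted p = 0.00113). Among STAT3-/- cells the same comparison gave -0.04 ± 0.12 (limma adjusted p = 0.95), with a 95% interval from -0.30 to 0.23.

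Because STAT3 and NF-kB both bind short DNA motifs, the RefSeq promoter windows of the members (GRCm38.p6, 250 bases before to 50 after an annotated start) were searched on both strands for the STAT motif TTCNNNGAA and for the kB consensus. Windows were on hand for 7 members, 11 windows in all. The STAT motif was in 3 of the 11 windows, in Nfkb2 once and in Nfkbid in 2 of its windows, against 8.3% of 32841 windows of the same length. By gene it was in 2 of the 7 members with a window, against 9.6% of 27018 genes. A gene counted when any of its windows matched. Nfkb2 and Nfkbid were the only members with several windows, so this share and that of all genes are not like for like. The kB consensus was in 8 of the 11 windows, against 8.5% of the same 32841, and in 6 of the 7 members with a window, against 9.6% of 27018 genes. These 8 included overlapping matches and a site shared by overlapping Nfkb2 windows, so they are not 8 separate elements. The 4 windows printed are that of Bcl3, the member that changed most, and the 3 that held the STAT motif. Capitals mark a match to either motif. The Bcl3 window (chr7:19822706-19823005, minus strand) has GGGAAGTCCC, a kB match, from base 3 onward, counting the start site as base 1. The first Nfkbid window (chr7:30421481-30421780, plus strand) has TTCCAGGAA, a STAT match that begins 167 bases before the start. The other Nfkbid window (chr7:30423025-30423324, plus strand) has TTCAGAGAA from 139 bases before the start. The Nfkb2 window (chr19:46304487-46304786, plus strand) has TTCCCCGAA from 148 bases before the start, and its other capitals are kB matches.
Bcl3: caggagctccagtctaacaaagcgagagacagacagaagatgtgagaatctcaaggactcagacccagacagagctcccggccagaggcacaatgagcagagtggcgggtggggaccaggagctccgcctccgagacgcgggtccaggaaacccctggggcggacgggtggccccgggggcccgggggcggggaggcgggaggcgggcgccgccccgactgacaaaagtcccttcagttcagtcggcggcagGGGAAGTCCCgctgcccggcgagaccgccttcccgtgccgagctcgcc
Nfkbid, first window: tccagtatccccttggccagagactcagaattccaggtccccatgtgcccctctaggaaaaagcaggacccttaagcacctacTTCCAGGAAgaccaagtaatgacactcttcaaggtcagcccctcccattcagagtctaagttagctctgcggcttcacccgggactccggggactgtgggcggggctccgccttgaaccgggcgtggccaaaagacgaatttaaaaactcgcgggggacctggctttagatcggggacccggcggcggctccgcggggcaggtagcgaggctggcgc
Nfkbid, other window: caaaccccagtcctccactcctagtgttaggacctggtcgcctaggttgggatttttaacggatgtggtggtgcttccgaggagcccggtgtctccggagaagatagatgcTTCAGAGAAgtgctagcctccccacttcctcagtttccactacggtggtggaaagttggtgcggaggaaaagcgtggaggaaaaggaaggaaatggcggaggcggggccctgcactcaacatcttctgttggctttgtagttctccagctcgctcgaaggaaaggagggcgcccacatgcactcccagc
Nfkb2: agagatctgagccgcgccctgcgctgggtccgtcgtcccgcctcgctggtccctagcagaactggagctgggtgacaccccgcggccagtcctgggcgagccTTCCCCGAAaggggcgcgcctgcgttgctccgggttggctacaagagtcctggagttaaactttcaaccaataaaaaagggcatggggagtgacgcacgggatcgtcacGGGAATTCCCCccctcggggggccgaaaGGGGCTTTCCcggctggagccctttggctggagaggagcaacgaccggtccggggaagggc
The letters TTCNNNGAA do not occur in this Bcl3 window, which says nothing of sites elsewhere. A match is a description of sequence and not evidence that a factor was bound.

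**Figure D1:**
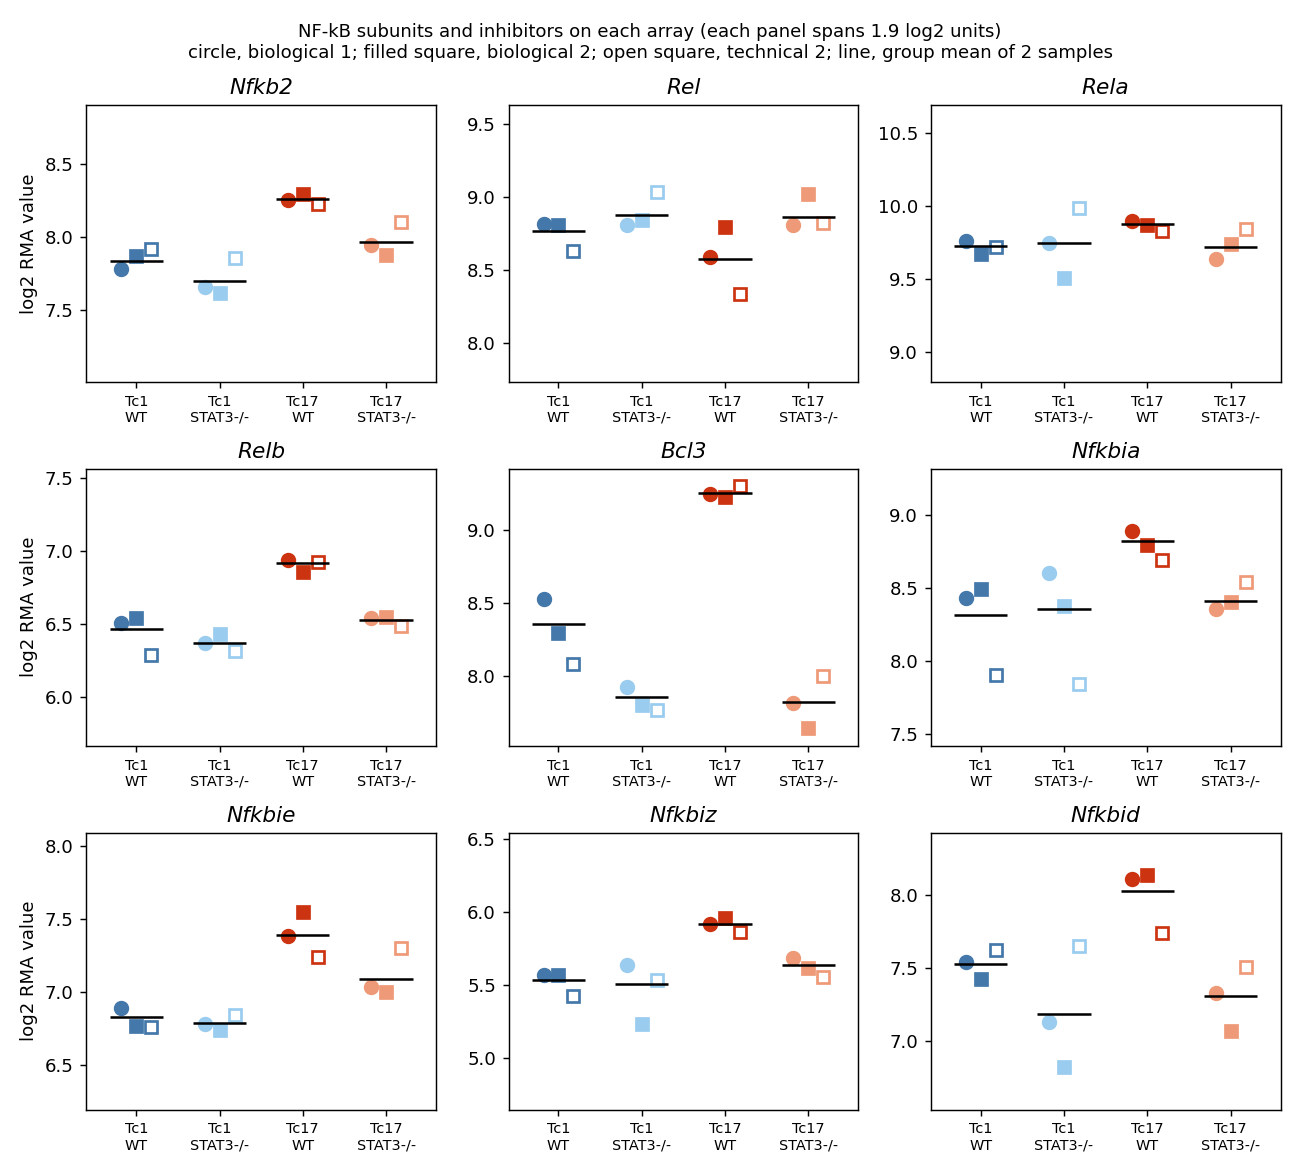
Log2 RMA value of each of the 9 genes on every array, by group on the horizontal axis, with circles for biological 1, filled squares for biological 2, open squares for technical 2 and a line at the mean of the 2 samples. All panels span the same number of log2 units, and Bcl3 shows Tc17 WT at 9.23 to 9.30 above the other 9 arrays, which lie between 7.64 and 8.53.

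Across the set, STAT3-/- Tc17 cells had lower values than WT Tc17 cells for most members. By limma with an adjusted p under 0.05, 5 of the 9 fell (Bcl3, Nfkbid, Relb, Nfkb2 and Nfkbie) and none rose, where 25.1% of all tested genes were called, 18.2% higher and 6.83% lower. The arrays of the genotypes did not overlap for 7 of the 9, 6 lower and 1 higher, against 44.3% of all tested genes, 10.7% lower and 33.6% higher. The median change of the 9 was -0.30, whereas the median over all tested genes was 0.11. That median over all tested genes moved with the scaling. It was 0.11 as deposited, 0.18 after subtracting the median of all probe sets and between -0.01 and 0.02 after the other 3 scalings. It also moved with the filter on dim genes, at -0.01 with no filter and 0.14 with the filter at 6. Relative to the median as deposited, Bcl3 lay at -1.55, Nfkbid at -0.83 and Relb at -0.50. No member changed sign in this comparison under any scaling.

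Among the subunit genes, Relb and Nfkb2 were called lower in Tc17 without STAT3. Their products form the RelB and p52 dimer of the alternative NF-kB pathway. The change of Rel was about as large as that of Nfkb2, in the other direction (0.29 against -0.29), and narrowly missed the call (limma adjusted p = 0.052). Relb read 6.94, 6.86 and 6.92 on the Tc17 WT arrays against 6.54, 6.55 and 6.48 in Tc17 STAT3-/-, while the Tc1 arrays read 6.51, 6.54 and 6.29 (WT) and 6.37, 6.43 and 6.32 (STAT3-/-). The 3 Tc17 WT arrays were above the other 9. Relb fell by 0.39 on the log2 scale (SE 0.09, limma adjusted p = 0.0115), a 1.31-fold difference. Relb did not pass when either Tc17 STAT3-/- sample was dropped, at an adjusted p of 0.0768 without replicate 1 and of 0.0881 without replicate 2. In Tc1 cells the Relb difference was -0.09 ± 0.09 (limma adjusted p = 0.998), and the difference between the cultures was -0.30 ± 0.12 (limma adjusted p = 0.172), which is not a call.

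Nfkb2 read 8.26, 8.30 and 8.23 in Tc17 WT and 7.94, 7.88 and 8.10 in Tc17 STAT3-/- cells. It read 7.78, 7.87 and 7.92 in Tc1 WT and 7.66, 7.62 and 7.86 in Tc1 STAT3-/- cells, so the Tc17 WT arrays were again above all others. The Tc17 change of -0.29 ± 0.09 passed with a limma adjusted p of 0.04. That call was marginal: it was lost in 3 of the 14 alternatives that kept every sample and in 7 of the 8 that left out 1 sample, with adjusted p up to 0.206 without Tc17 STAT3-/- replicate 1. The only sample whose omission kept it was Tc1 STAT3-/- replicate 2 (adjusted p = 0.0499).

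Rela and Rel, the subunits of the canonical pathway that carry activation domains, were not called in any of the 5 comparisons as deposited. Rela stood at 9.90, 9.87 and 9.83 in Tc17 WT and at 9.64, 9.74 and 9.84 in Tc17 STAT3-/- cells, and at 9.76, 9.67 and 9.72 in Tc1 WT and 9.75, 9.50 and 9.98 in Tc1 STAT3-/- cells. Its arrays overlapped between the genotypes in both cultures, and the Tc17 difference of -0.16 had a 95% interval from -0.36 to 0.05. Rel differed from the rest of the set in the order of its groups. It read 8.59, 8.79 and 8.33 in Tc17 WT and 8.80, 9.02 and 8.82 in Tc17 STAT3-/-, and 8.81, 8.81 and 8.63 in Tc1 WT and 8.81, 8.84 and 9.03 in Tc1 STAT3-/- cells. Tc17 WT was thus its lowest group, and the Tc17 difference of 0.29 ± 0.09 just missed the threshold (limma adjusted p = 0.052), with a gap of 0.009 between the closest arrays. Rel was called with the filter at 6 (adjusted p = 0.038), with arrays centred on the median of all probe sets (0.35, adjusted p = 0.0293) and with trended, robust moderation (adjusted p = 0.0262). Fitting the replicate number as a block also called Rel (limma adjusted p = 0.0457). Rela was called after cyclic loess, both in Tc17 (-0.30, adjusted p = 0.0326) and between the cultures in WT cells (0.30, adjusted p = 0.033).

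Nfkbid, which encodes the nuclear inhibitor IkBNS and is needed for the development and activation of several lymphocyte types, was the member with the next largest fall after Bcl3. Its arrays read 8.11, 8.13 and 7.74 in Tc17 WT and 7.32, 7.06 and 7.51 in Tc17 STAT3-/-. In Tc1 they read 7.54, 7.42 and 7.62 (WT) and 7.13, 6.82 and 7.65 (STAT3-/-). The Tc17 groups did not overlap, whereas in Tc1 the STAT3-/- technical array exceeded every WT array. In Tc17 Nfkbid fell by 0.72 on the log2 scale (SE 0.10, limma adjusted p = 0.00113), 1.64-fold, a call kept in all 22 alternatives. The Tc1 difference of -0.35 ± 0.10 had an unadjusted p of 0.00529 and a limma adjusted p of 0.81. The difference between the cultures, -0.37 ± 0.13, was not called (limma adjusted p = 0.135); without the Tc17 WT technical array it was -0.47 with an adjusted p of 0.0307.

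Nfkbiz, the gene of IkBz, varied less than Bcl3 and Nfkbid on these arrays. Its group means spanned 0.41, against 1.44 and 0.84 for those genes, 0.30 for Rel and 0.16 for Rela. Nfkbiz had the lowest values of the members and lay closest to the filter of 5. Values compress near background, so its changes may be understated. It read 5.92, 5.96 and 5.87 in Tc17 WT and 5.69, 5.62 and 5.56 in Tc17 STAT3-/- cells. In Tc1 it read 5.57, 5.57 and 5.43 (WT) and 5.64, 5.23 and 5.54 (STAT3-/-). All 3 Tc17 WT arrays lay above the other 9, with a gap of 0.18 to the nearest. The Tc17 genotype difference of -0.28 ± 0.11 was nevertheless not called (limma adjusted p = 0.0829), and its 95% interval ran from -0.52 to -0.04. It was called once arrays were centred on the median of the tested genes (-0.40, adjusted p = 0.0177), after cyclic loess (-0.34, adjusted p = 0.0416) and after quantile normalization (-0.37, adjusted p = 0.0268). With the replicate number fitted as a block it was also called (-0.28, limma adjusted p = 0.0487). The labels do not say whether that number marks a shared culture. In Tc1 the Nfkbiz difference was -0.02 ± 0.11.

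The cytoplasmic inhibitors came next. Nfkbie read 7.38, 7.55 and 7.24 in Tc17 WT, 7.03, 7.003 and 7.30 in Tc17 STAT3-/-, 6.89, 6.77 and 6.76 in Tc1 WT and 6.78, 6.74 and 6.84 in Tc1 STAT3-/- cells. The genotypes overlapped in Tc17, because the STAT3-/- technical array exceeded the WT technical array. The Tc17 change of -0.30 ± 0.09 passed by little (limma adjusted p = 0.0432), and the call was lost in all 8 analyses without 1 sample, with adjusted p from 0.0582 to 0.26. Nfkbia read 8.90, 8.80 and 8.69 in Tc17 WT, 8.36, 8.40 and 8.54 in Tc17 STAT3-/-, 8.43, 8.50 and 7.90 in Tc1 WT and 8.61, 8.38 and 7.84 in Tc1 STAT3-/- cells. Both Tc1 technical arrays were the low ones for Nfkbia, below the biological arrays of their group. Its Tc17 difference of -0.41 ± 0.16 was not called (limma adjusted p = 0.093) although the genotypes did not overlap, and without the technical arrays it was -0.47 (adjusted p = 0.00668).

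**Figure D2:**
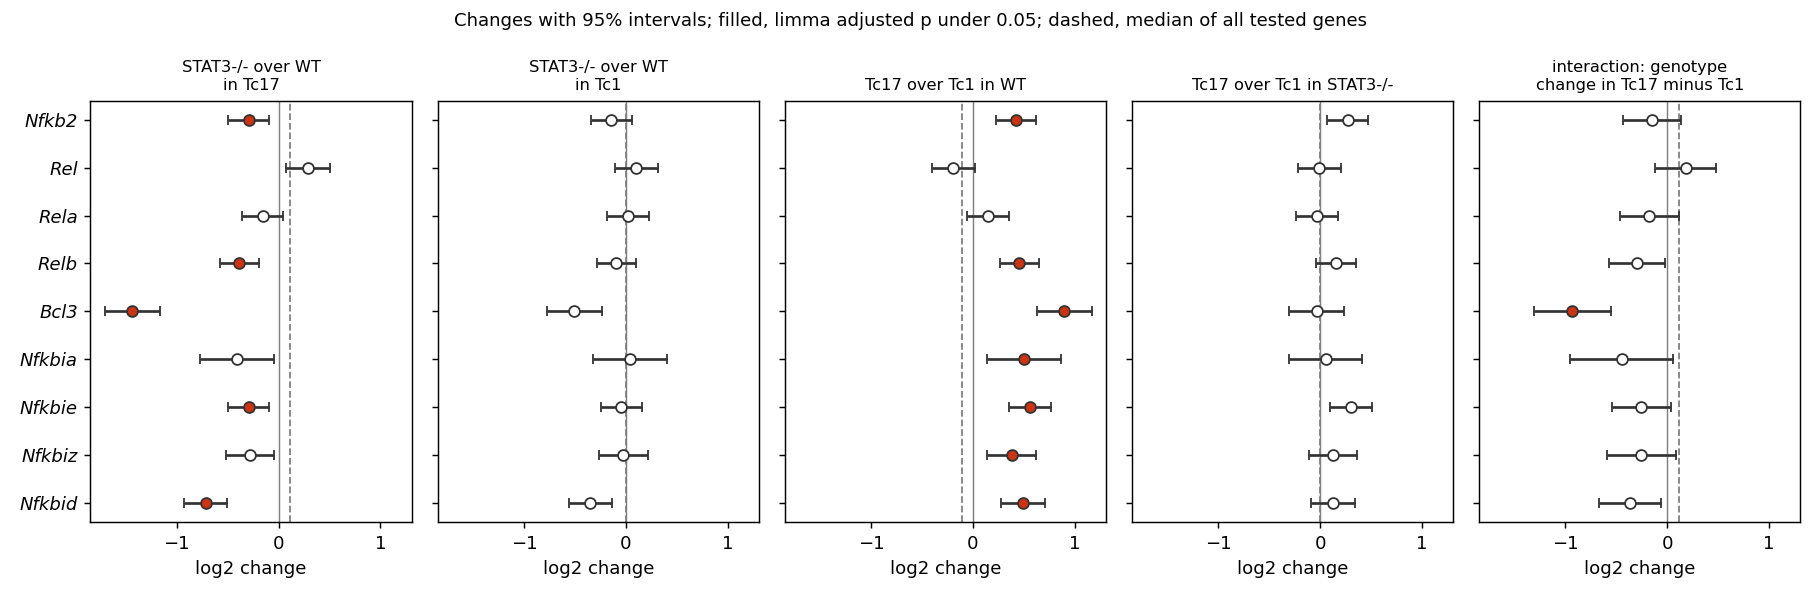
Log2 change of each member in the 5 comparisons, with 95% intervals from the limma fit and filled points for an adjusted p under 0.05; dashed lines mark the median of all tested genes. Bcl3 is the only member called for the interaction, the difference between the cultures in the genotype change, and its interval there runs from -1.31 to -0.55.

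In Tc1 cells 0 of the 9 members were called between the genotypes by limma, where 0.0608% of all tested genes, 6 in number, were called, 0.0203% higher and 0.0406% lower. At an unadjusted p under 0.05 the count was 2 of 9 (Bcl3 and Nfkbid) and 370 of all tested genes. The arrays did not overlap for 1 of 9, Bcl3, against 7.79% of all tested genes, 4.59% higher and 3.19% lower. For the difference between the cultures 1 of 9 was called, against 6.85% of all tested genes, 4.48% higher and 2.37% lower. The other 8 had adjusted p from 0.135 to 0.49, so a difference between cultures was not shown for them.

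The cultures themselves differed for most of the set among WT cells. In WT cells 7 of the 9 members rose from Tc1 to Tc17 and none fell, where 25% of all tested genes were called, 7.01% higher and 18% lower. The arrays did not overlap for 8 of 9, all higher in Tc17, against 40.8% of all tested genes, 10.8% higher and 30.1% lower. After Bcl3 the largest rises were in Nfkbie (0.56 ± 0.09, limma adjusted p = 0.00305), Nfkbia (0.50 ± 0.16, adjusted p = 0.0473), Nfkbid (0.49 ± 0.10, adjusted p = 0.00646) and Relb (0.45 ± 0.09, adjusted p = 0.00582). Nfkb2 rose by 0.42 (adjusted p = 0.00934) and Nfkbiz by 0.38 (adjusted p = 0.0292). Bcl3 and Nfkbie kept these calls in all 22 alternatives, Nfkb2 lost it only without Tc1 WT replicate 1 (adjusted p = 0.0844) and Relb only without Tc1 WT replicate 2 (adjusted p = 0.0525). Nfkbid lost it only with each technical array as a sample of its own (0.47, adjusted p = 0.0827). The calls of Nfkbia and Nfkbiz each failed in 6 of the 8 analyses without 1 sample, with adjusted p up to 0.213 and 0.138, in both cases without Tc1 WT replicate 2. Rela (0.15, adjusted p = 0.255) and Rel (-0.19, adjusted p = 0.161) were not called.

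Without STAT3 the same step from Tc1 to Tc17 gave 0 of 9 calls by limma, against 2.07% of all tested genes, 1.05% higher and 1.01% lower. At an unadjusted p under 0.05 the count was 2 of 9, Nfkbie (0.31, adjusted p = 0.189) and Nfkb2 (0.27, adjusted p = 0.251), beside 1098 of all tested genes. The arrays did not overlap for 3 of 9 (Nfkb2, Relb and Nfkbie), all higher in Tc17, against 16.4% of all tested genes, 8.69% higher and 7.68% lower. This comparison shares its samples with both genotype comparisons, so the sets of values are not independent of each other. The difference between the step without STAT3 and the step in WT cells is the same quantity as the interaction. Among the members that was called only for Bcl3, so a dependence of the step on STAT3 was not shown for the rest. Ordered by group mean, Tc17 WT was the highest group for 8 of the 9 members, and Tc1 STAT3-/- the lowest for 5. The neighbouring groups of that order overlapped on arrays in most cases. The exceptions were the step up to Tc17 WT from Tc17 STAT3-/- for Nfkb2, Relb, Nfkbia and Nfkbiz and from Tc1 WT for Nfkbid and Bcl3, together with the step from Tc1 STAT3-/- to Tc1 WT for Bcl3 and that from Tc1 WT to Tc17 STAT3-/- for Nfkbie. Neither the order of groups nor these steps were counted over all tested genes, so no share stands beside them. The axis of largest variation over all tested genes held 54.4% of the variance. On it the Tc17 WT arrays lay from 25.4 to 44.8 and all others from -17.7 to -6.3. The order of groups is therefore not read as a trait of the set.

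The genes around the family were read from 3 lists (signalling components, negative regulators and target genes). These lists too were chosen with earlier results of these data known, so their shares are descriptive. Of 29 signalling genes, 24 had a usable probe set and were tested; in Tc17 without STAT3, 5 rose and 4 fell, with a median of 0.16 beside 0.11 over all genes. The shares were 20.8% higher and 16.7% lower, beside 18.2% and 6.83% of all tested genes. Birc2, the gene of the ubiquitin ligase cIAP1, fell by 0.89 (limma adjusted p = 0.00185), Malt1, the paracaspase of T cell receptor signalling, by 0.41 (adjusted p = 0.0173), Birc3, the gene of cIAP2, by 0.33 (adjusted p = 0.0429) and Map3k14, the NF-kB inducing kinase, by 0.30 (adjusted p = 0.044). The largest rises among the called genes were in the adaptor Traf5 (0.84, adjusted p = 0.00183), Tab1 (0.63, adjusted p = 0.00838), the kinase gene Ikbke (0.39, adjusted p = 0.032) and Sharpin, a subunit of the linear ubiquitin ligase (0.36, adjusted p = 0.0196). Birc2 stood at 7.49 ± 0.14 in Tc17 WT and between 6.61 and 6.68 in the other 3 groups (log2 mean, SD, n = 2), and Traf5 at 5.13 ± 0.13 in Tc17 WT and 5.96 in each of the others. Birc2 and Traf5 kept their calls in every alternative in which they were tested (22 and 21). The calls of Ikbke failed in 14 of 22, of Map3k14 in 13 of 21 and of Birc3 and Sharpin in 11 of 22. Without the Tc17 WT technical array Ikbke was at 0.18 (adjusted p = 0.157) and Birc3 at -0.24 (adjusted p = 0.0744), so neither was called. Malt1 lost its call without Tc17 WT replicate 2 or either Tc17 STAT3-/- replicate, with adjusted p up to 0.126, and Tab1 without Tc17 STAT3-/- replicate 1 (adjusted p = 0.0799).

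Of 17 negative regulators, 16 were tested, of which 3 fell and 1 rose in Tc17 without STAT3, with a median of -0.16. The share called, 25%, was that of all tested genes (25.1%), with 6.25% higher and 18.8% lower beside 18.2% and 6.83%. Traf1, a TRAF protein that is itself an NF-kB target, fell by 1.25 (limma adjusted p = 0.00017), from 9.25 ± 0.11 to 7.997 ± 0.06, a level close to the 8.13 ± 0.21 of Tc1 WT cells. Tnip2 and Tnip3, which encode ubiquitin-binding partners of A20, fell by 0.61 (adjusted p = 0.00492) and by 0.34 (adjusted p = 0.0425), and N4bp1 rose by 0.50 (adjusted p = 0.0119). Traf1 and Tnip2 kept their calls in all 22 alternatives, whereas that of Tnip3 failed in 11. N4bp1 lost its call without Tc17 WT replicate 2 or Tc17 STAT3-/- replicate 2, with adjusted p up to 0.103.

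All 27 target genes had a probe set and 21 were tested, of which 5 fell and 3 rose, with a median of -0.13. The shares were 14.3% higher and 23.8% lower, beside 18.2% and 6.83% of all tested genes. The falls were led by Ccr7, the chemokine receptor of lymph node homing (-1.04, limma adjusted p = 0.00843), the early response gene Ier3 (-0.97, adjusted p = 0.00261), the transcription factor Irf4 (-0.48, adjusted p = 0.00428) and Tnfrsf4, which encodes the costimulatory receptor OX40 (-0.46, adjusted p = 0.00718). Ccl3, a chemokine (1.22, adjusted p = 0.00411), Irf1 (0.63, adjusted p = 0.00435) and the survival gene Bcl2l1 (0.37, adjusted p = 0.0153) rose. The list therefore did not move as one. Ier3, Ccl3 and Irf1 kept their calls in all 22 alternatives. Ccr7, Irf4 and Tnfrsf4 lost theirs only without Tc17 STAT3-/- replicate 1, with adjusted p of 0.0573, 0.0536 and 0.0783, and Bcl2l1 lost its call in 4 of 22, among them without either Tc17 STAT3-/- replicate, with adjusted p up to 0.135.

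**Figure D3:**
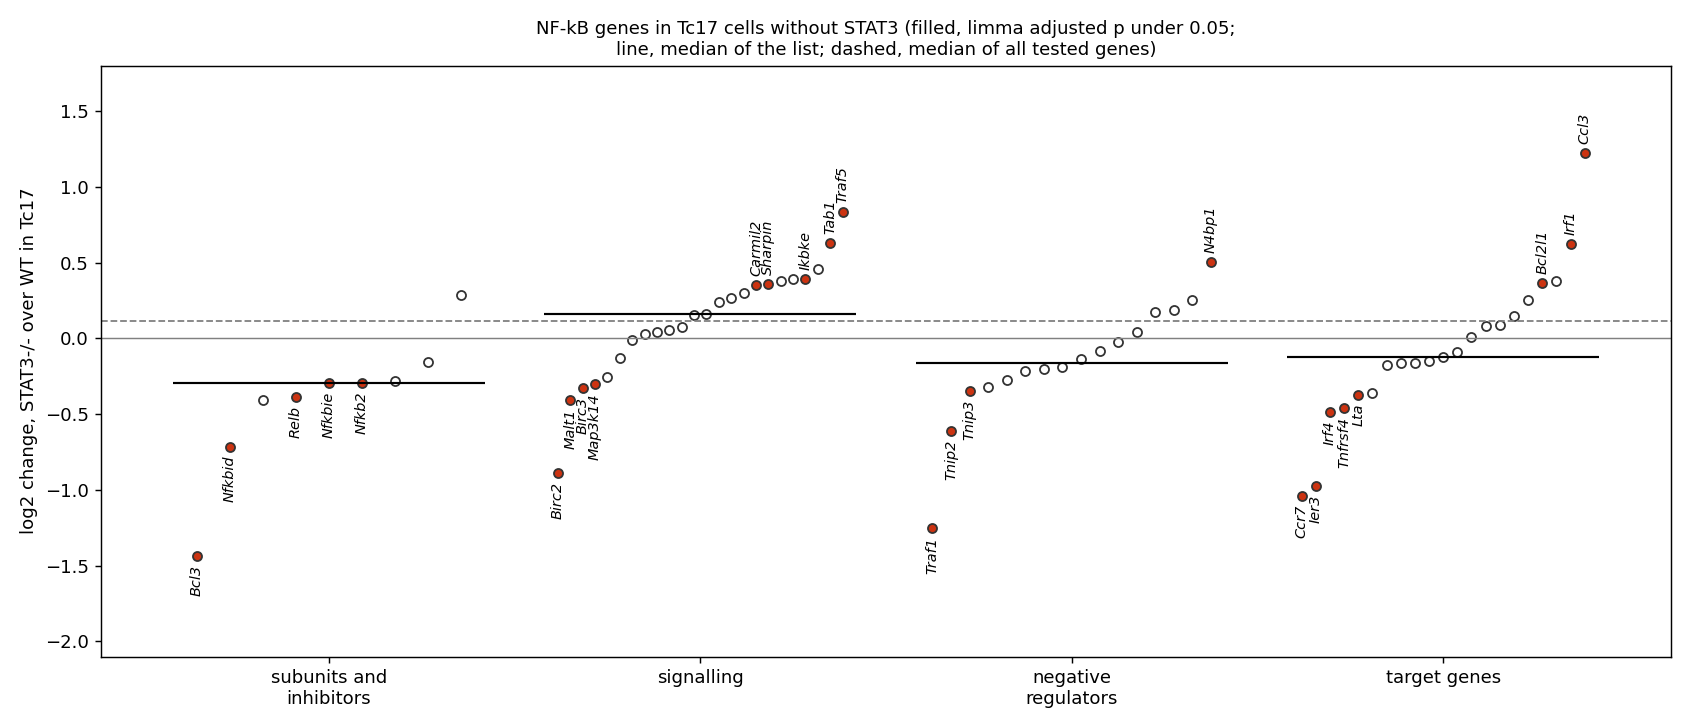
Log2 change from WT to STAT3-/- in Tc17 of every tested gene of the set and of the 3 lists, sorted within each; filled points passed an adjusted p under 0.05, solid lines are list medians and the dashed line is the median of all tested genes. The set has its 5 called genes below 0, while the signalling, negative regulator and target lists hold called genes on both sides.

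The same lists were read in the other comparisons. In Tc1 cells 0 genes of the 3 lists were called between the genotypes by limma. In WT cells from Tc1 to Tc17, 3 signalling genes rose and 6 fell, 4 negative regulators rose and 1 fell, and 8 target genes rose and 2 fell. Over all tested genes 7.01% rose and 18% fell; the shares were 12.5% and 25% for signalling, 25% and 6.25% for negative regulators, and 38.1% and 9.52% for target genes. Birc2 (0.81, limma adjusted p = 0.00285) and Malt1 (0.48, adjusted p = 0.00875) led the signalling rises, and Traf5 (-0.83, adjusted p = 0.00184) and the kinase gene Prkcq (-0.53, adjusted p = 0.0058) the falls. Traf1 (1.11, adjusted p = 0.000327) and Tnip2 (0.77, adjusted p = 0.00171) led the regulators, and Ccr7 (1.59, adjusted p = 0.00114) and the cytokine gene Lta (1.199, adjusted p = 0.000235) the targets. Of these 8, Malt1 lost its call without Tc1 WT replicate 2 (adjusted p = 0.0708), and the other 7 kept theirs in every alternative in which they were tested. The genotype change differed between the cultures for Traf1 (-1.18, adjusted p = 0.00477), Birc2 (-0.88, adjusted p = 0.0252), Malt1 (-0.59, adjusted p = 0.0383), Traf5 (0.84, adjusted p = 0.0235), Ier3 (-1.03, adjusted p = 0.026), Irf4 (-0.50, adjusted p = 0.0425) and Irf1 (0.62, adjusted p = 0.0486). Of these, Traf1 kept that call in all 22 alternatives, and the other 6 lost it in 7 to 15, each of them without Tc17 STAT3-/- replicate 1 among others, with adjusted p up to 0.186. Irf1 also lost it without the Tc17 WT technical array, at an adjusted p of 0.164.

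By the smallest root mean square difference over the 8 samples, after subtracting each gene's own mean, the profiles nearest to Bcl3 were those of Snord118 (0.112), Gpr18 (0.137), Atrnl1 (0.159), Socs3 (0.162) and Maged1 (0.171). Socs3, a feedback inhibitor of cytokine signalling and a known STAT3 target, had group means of 7.46 in Tc17 WT and 6.01 in Tc17 STAT3-/-, with 6.27 in Tc1 WT and 5.99 in Tc1 STAT3-/- cells. For Nfkbiz the nearest were Dstn (0.036), Selenbp2 (0.041), Tes (0.043), Nckap1 (0.058) and Cast (0.061). Nfkbiz itself spanned 0.41 between its group means, against 1.44 for Bcl3. The profiles were not scaled to each gene's own range, so the distances for Nfkbiz and Bcl3 cannot be compared with each other.

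Markers of CD8+ and other cell types were read beside these results. The 6 CD8 T cell markers with a probe set were all tested, their summed log2 means ran from 63.19 to 64.11 over the groups, and 1, Cd8a, was called in Tc17 without STAT3 (0.30, limma adjusted p = 0.0446). Of 5 B cell markers with a probe set 2 were tested, and both rose in Tc17 without STAT3, Ighm by 1.77 and Cd79b by 0.78 (averaging all Ighm probe sets gave 0.52), while the list's sum was 26.23 in Tc17 WT, 28.57 in Tc17 STAT3-/-, 27.59 in Tc1 WT and 27.77 in Tc1 STAT3-/-. The defining B cell markers Cd79a and Ms4a1 had means of at most 3.96 and 2.56 in any group, under the filter. Of 6 myeloid markers 1 was tested, Cd68, and it fell by 1.12, with list sums of 24.98 in Tc17 WT, 23.93 in Tc17 STAT3-/-, 25.12 in Tc1 WT and 25.53 in Tc1 STAT3-/-. The 2 CD4 markers and the 1 tested marker of NK and innate-like cells were not called in that comparison. The part of Ighm, Cd79b and Cd68 in the members' changes was not tested.

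**Figure D4:**
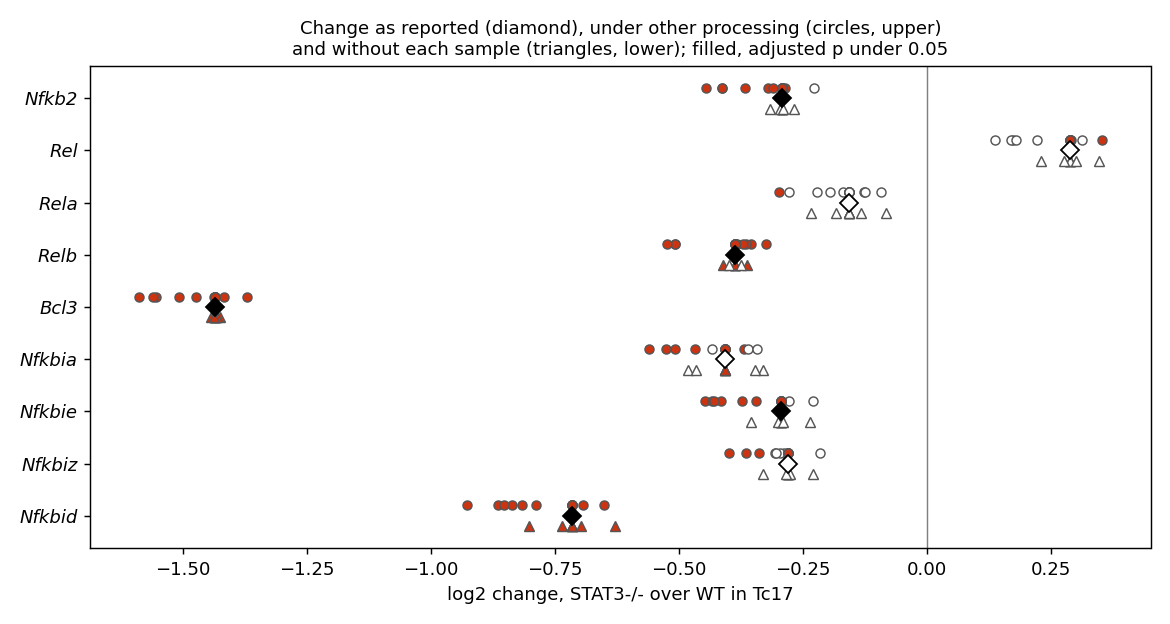
Log2 change from WT to STAT3-/- in Tc17 of each member as reported and under the alternative analyses, with filled points for an adjusted p under 0.05. Bcl3 stays between -1.59 and -1.37 and is called throughout, as is Nfkbid, while every other member crosses the threshold under some alternative.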

How the data were processed

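Total RNA of 12 arrays was measured on a mouse Affymetrix platform. The deposited values are log2 expression that the authors made with RMA in Partek, per the submitters' processing notes; the sources used here name no version and no genome build. RMA removes background and quantile-normalizes arrays, so shifts of all genes are lost and values compress near background.

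Of 41345 probe sets, 23521 carried 1 gene symbol, 1814 several and 16010 none. A gene with several single-symbol probe sets was read from the one with the highest mean. Genes with at least 1 group mean of 5 were tested (9862). The technical array was averaged with biological 2. limma 3.58.1 (R 4.3.3) fitted group means over all 8 samples, with 4 residual degrees of freedom, for 5 contrasts, with Benjamini-Hochberg adjustment over all tested genes at 0.05. Errors are SE for changes and SD for levels. The number of arrays limits precision. The fit was tested on simulated data.

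The members and lists were chosen with earlier results of these data known. Named genes were all members, then up to 4 falls and 4 rises per list in the Tc17 genotype comparison, up to 2 each way in other comparisons, and the 5 nearest profiles to Bcl3 and Nfkbiz. Alternatives were 14 settings (treatment of technical arrays, filter, probe sets, scaling, moderation, samples fitted, replicate block) and 8 fits without 1 sample.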

Additional observations from a re-analysis of the deposited data

Results flagged for a closer look

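The genotype change of Bcl3 differed between the Tc17 and Tc1 cultures by -0.93 on the log2 scale (limma interaction term, SE 0.17, adjusted p = 0.014, n = 2 samples per group), which is why it is listed for a closer look. The change was -1.44 in Tc17 and -0.50 in Tc1, and all 3 arrays of each STAT3-/- group lay below all 3 of the matching WT group. The call was lost without Tc1 STAT3-/- replicate 1 (-0.86, adjusted p = 0.054), Tc17 STAT3-/- replicate 1 (-0.93, adjusted p = 0.0656) or Tc17 STAT3-/- replicate 2 (-0.93, adjusted p = 0.0609); the direction was the same in all 22 alternatives. Groups of 2 samples are too small for a check of single outlying samples.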

How the results depend on the processing

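Over all member results and alternatives, 890 values kept direction and side of the threshold, 49 lost a call, 22 gained one and 24 changed sign; the cause was not tested. The signs that changed were all of values without a call. With technical arrays left out these were Rela in Tc1 (-0.089) and, from Tc1 to Tc17 without STAT3, Nfkbia (-0.113), Rel (0.089) and Rela (0.063). With the technical array averaged with replicate 1 they were, in Tc1, Nfkbia (-0.03) and Rela (-0.02) and, in the culture comparison without STAT3, Rel (0.038) and Rela (0.055); with it as its own sample, Nfkbia in Tc1 (-0.001). Rel in that culture comparison was 0.003 after loess and 0.016 after quantile normalization. Without 1 sample, the Tc1 genotype values that changed sign ran from -0.204 to 0.289 (Nfkbia), -0.105 to 0.022 (Nfkbie), -0.152 to 0.104 (Nfkbiz) and -0.013 to 0.052 (Rela), and the culture values without STAT3 from -0.104 to 0.034 (Bcl3), -0.191 to 0.302 (Nfkbia), -0.002 to 0.254 (Nfkbiz), -0.072 to 0.054 (Rel) and -0.106 to 0.044 (Rela).

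Members called in Tc17 (5) became 3 with no filter, 8 after loess and 8 with the replicate block, which added Nfkbia (adjusted p = 0.0466), Nfkbiz (0.0487) and Rel (0.0457); members called for the interaction (1) became 2 with technical arrays left out, without the Tc17 WT technical array, and after loess. Signalling genes called (9) became 4 with no filter and 5 when only the groups compared were fitted. Genes called in Tc1 (6) became 24 with technical arrays left out, 16 with them averaged with replicate 1, 13 as own samples, 14 without the Tc17 WT technical array and 15 with the replicate block. Genes called for the interaction (676) became 1259 with technical arrays left out, 384 with no filter and 1018 with the block. Genes called between the cultures became 409 (from 204) without STAT3 with technical arrays left out, and 1479 (from 2468) in WT with only those groups fitted. Without 1 sample, members called ran from 2 to 5 (Tc17), 0 to 0 (Tc1), 0 to 1 (interaction), 4 to 7 (cultures, WT) and 0 to 0 (cultures, STAT3-/-), genes from 949 to 3192, 4 to 7, 244 to 1553, 1098 to 3242 and 65 to 247, and list genes from 2 to 14 (signalling), 2 to 4 (negative regulators) and 3 to 8 (targets). The lone sample left in a group is assumed to vary as the others do. Nfkbiz was not tested with the filter at 6. The replicate numbers were not taken as pairing, because the labels do not say whether they mark a shared culture. Differences between samples 1 and 2 correlated between the genotypes at 0.455 in Tc1 and 0.099 in Tc17. Between groups of different cultures they correlated from 0.098 to 0.16. With the biological arrays alone the correlations were 0.172 in Tc1, 0.029 in Tc17 and from 0 to 0.079 between groups of different cultures. These values cannot tell whether the samples were paired. Nfkbiz lay closest to the filter of 5.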

Other observations

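Without STAT3, 3 of the 21 tested NF-kB target genes rose from Tc1 to Tc17, 14.3%, beside 1.05% of all tested genes. These were the chemokine gene Ccl3 (1.16, limma adjusted p = 0.0258), the cytokine gene Lta (0.63, adjusted p = 0.0305) and the activation marker Cd83 (0.51, adjusted p = 0.0223), none of which is a subunit or inhibitor. Ccl3 had a group mean of 7.22 ± 0.26 in Tc17 STAT3-/- cells (log2, SD, n = 2) and means between 5.86 and 6.06 in the other 3 groups, so its highest mean was in Tc17 STAT3-/- cells. Tc1 STAT3-/- cells had an SD of 0.44 and an array at 7.21, above the lowest Tc17 STAT3-/- array (7.04). Cd83 stood at 5.88 and 5.75 in the Tc17 groups and at 5.32 and 5.24 in the Tc1 groups, WT first. Each of these calls failed in some alternatives, 7 of 22 for Ccl3, 6 of 22 for Lta and 9 of 21 for Cd83, including without either Tc17 STAT3-/- replicate, with adjusted p up to 0.241, 0.253 and 0.308.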
